A study of Chlorocebus sabaeus with 45 samples.

Results

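The genes described here encode the subunits of the 5 oxidative phosphorylation complexes of the mitochondrion, measured in the whole blood of juvenile male vervet monkeys (Chlorocebus sabaeus). Members were chosen by gene symbol, as the names that begin with NDUFA, NDUFB, NDUFC, NDUFS or NDUFV followed by a number, SDHA to SDHD, UQCR, COX4 to COX8 or ATP5, with a mean of at least 0.5 FPKM over the 45 samples. FPKM is the number of sequenced fragments on a gene per kilobase of its length and scaled to the total of fragments on all genes. Of 33994 genes, 56 met this rule by symbol, with 35 in complex I, 4 in complex II and 17 in complex V. Subunits of complexes III and IV appeared in the tables under numbered gene identifiers in place of symbols. Through the RefSeq gene number 25 of them could be named, and 20 reached the same limit, 8 in complex III and 12 in complex IV, which made 76 members. Each of the 76 also passed the filter on low values used for testing. The member nearest above the limit was ATP5S with a mean of 0.946 FPKM, and the nearest below it was the testis-type subunit COX6B2 with 0.461 FPKM. Also below it were the tissue-restricted forms COX4I2, COX6A2, COX7B2 and COX8C, at 0.0058, 0.0404, 0.00922 and 0.288 FPKM. Genes of the mitochondrial genome, NDUFA1 and NDUFS5 were not analysed here.

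The study asked how psychosocial stress acts on gene expression. It sampled each of 15 wild-born animals from St. Kitts 3 times, which gave 15 libraries on each day. On day 0 the animals were bled in the field shortly after trapping, under ketamine and xylazine. On days 3 and 14 they lived in single cages in a quarantine facility and were sedated with dexmedetomidine plus midazolam. The drugs and the place of sampling therefore cannot be told apart from time in any comparison with day 0. No group of animals stayed in the field, and the comparisons are within animals over time.

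Oxidative phosphorylation is the last stage of respiration. Complex I takes electrons from NADH and complex II from succinate, complex III passes them to cytochrome c, complex IV hands them to oxygen, and complex V uses the proton gradient built on the way to make ATP. Most complexes hold a small catalytic core and many accessory subunits that have no catalytic centre and serve assembly and stability. In blood, mature red cells have no mitochondria, reticulocytes still carry some, neutrophils live mainly by glycolysis, and lymphocytes, monocytes and platelets respire.

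The libraries held between 13216275 and 31469332 fragments on genes, and members rested on at least 17 fragments in every library. Markers of blood cells shifted strongly between days. The summed level of 31 reticulocyte and erythroid precursor genes ranged from 882 to 32813 TMM-scaled FPKM on day 0 (median 6654), from 5240 to 58894 on day 3 (median 19176) and from 10806 to 96849 on day 14 (median 48315), and 30 of the 30 tested rose on day 14 vs. day 0. TMM scaling, the trimmed mean of M values, divides each library by a factor that centres the typical gene. The sum of 21 neutrophil markers had daily medians of 4516, 2862 and 2531, and 16 of the 21 fell on day 14 vs. day 0. In 3 libraries of day 0, from animals 7, 11 and 15, this sum stood apart from the rest, with 45688 as the highest. Over the same interval 9 of 16 platelet genes, 7 of 9 NK cell genes and 11 of 12 proliferation genes rose, 4 of 13 T cell genes rose, 3 of 10 B cell genes fell, and of 11 monocyte genes 1 rose and 4 fell; without TMM scaling 0 T cell genes were up and 8 down, 10 of 10 B cell genes and 5 monocyte genes were down, and 2 platelet genes were up and 1 down. With the RNA integrity number of each sample as a covariate, a measure of RNA degradation made by the study, 2 platelet genes and 1 T cell gene were up, and 0 B cell genes and 1 monocyte gene were down. This number was on average higher on each later day. On day 3 vs. day 0, 24 of 30 erythroid, 15 of 16 platelet and 6 of 9 NK cell genes rose. So did 8 of 12 proliferation and 4 of 11 monocyte genes. Meanwhile 12 of 21 neutrophil genes fell, 1 T cell gene rose and 3 fell, and 0 B cell genes changed. Of all tested genes 10.1% were higher and 9.04% lower. With the RNA integrity number 21 erythroid, 15 platelet, 3 NK cell, 3 proliferation and 4 monocyte genes were up and 8 neutrophil genes down. Without TMM scaling 0 T cell genes were up or down. On day 14 vs. day 3 the platelet genes turned, with 0 up and 11 of 16 down. Also down were 6 of 11 monocyte, 6 of 10 B cell and 3 of 21 neutrophil genes. Higher were 19 of 30 erythroid, 4 of 9 NK cell, 4 of 13 T cell and 6 of 12 proliferation genes. Of all tested genes 13.9% were higher and 9.76% lower. With the RNA integrity number 6 platelet, 2 monocyte, 3 B cell and 0 neutrophil genes were down. Then 7 erythroid, 3 NK cell, 2 T cell and 4 proliferation genes were up. Without TMM scaling 14 platelet, 12 neutrophil, 8 monocyte, 10 B cell and 5 T cell genes were down, against 46.1% of all tested genes. The share of fragments in the 20 most abundant genes of a library had medians of 10.03%, 13.9% and 25.5% over the successive days. The erythroid list named globin genes, and the study treated its libraries to remove globin RNA. The part of that treatment in these sums and shares was not tested. In bulk blood, fewer cells of a type and less RNA per cell cannot be told apart. The part of these shifts in the results below was not tested.

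On day 14 vs. day 0, 63 of the 76 members were up-regulated and 0 were down-regulated, at an adjusted p-value under 0.05 from limma with the animal as a block. This is 82.9% of members, whereas among all 18753 genes tested 44.0% were called, 23.0% higher and 21.0% lower. Without TMM scaling the median of all tested genes on day 14 vs. day 0 moved from −0.02 to −0.36, and then 27 members were up and 5 down, against 9.29% of all tested genes up and 49.9% down, so the changes given here are relative to the typical gene. With the RNA integrity number 24 members were up and 0 down, against 13% of all tested genes up and 8.73% down. A total of 22 members were up in each of these 3 models: NDUFA2, NDUFA3, NDUFA5, NDUFA6, NDUFB3, NDUFB6 and NDUFB9 of complex I, SDHB of complex II, UQCR10, UQCRB and UQCRH of complex III, COX6A1, COX6B1, COX6C, COX7A2, COX7B, COX7C and COX8A of complex IV, and ATP5E, ATP5H, ATP5J and ATP5J2 of complex V. Each other member called on day 14 vs. day 0 lost its call in at least 1 of the latter models.

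Each complex had a median above that of all genes. The median log2 fold change on day 14 vs. day 0 was 0.50 for complex I, 0.24 for complex II and 0.48 for complex III. For complex IV it was 0.90 and for complex V 0.31, against −0.02 for all tested genes. Without TMM scaling the medians of complexes I to V were 0.08, −0.18, 0.05, 0.47 and −0.11, against −0.36 for all tested genes. Up-regulated were 32 of 35 members of complex I, 3 of 4 of complex II and 8 of 8 of complex III. In complexes IV and V these were 10 of 12 and 10 of 17. Among them were COX7A2L of complex IV and ATP5S and ATP5SL of complex V, which are not subunits of these complexes. With the RNA integrity number 8, 1, 3, 7 and 5 members of complexes I to V were up. Without TMM scaling 10, 1, 3, 7 and 6 were up and 2, 1, 0, 0 and 2 down. In TMM-scaled values nearly every animal moved the same way. The median of these values over the members of complexes I, II, III and V was above 0 in 15 of 15 animals. For complex IV it was above 0 in 14 of 15. The differences between complexes were not tested.

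**Figure D1:**
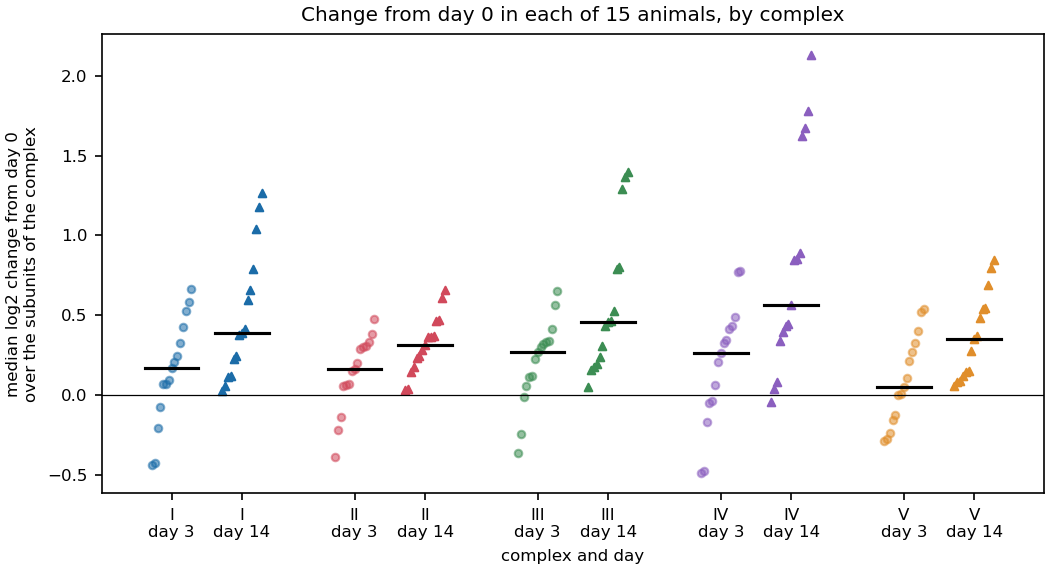
The median log2 change from day 0 over the subunits of each complex is plotted for each of the 15 animals on day 3 (circles) and day 14 (triangles), from TMM-scaled values, with the median of the animals as a black bar. On day 14 every animal lies above 0 for complexes I, II, III and V and 14 of 15 for complex IV. On day 3 between 10 and 12 of 15 animals lie above 0 in each complex. Without TMM scaling the day 14 medians over genes of complexes I to V are 0.08, −0.18, 0.05, 0.47 and −0.11.

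Complex I, NADH dehydrogenase, showed its largest values among accessory subunits. Of the NDUFA group 12 of 12 rose on day 14 vs. day 0 (median log2 fold change 0.74) and of the NDUFB group 10 of 11 (median 0.51). Without TMM scaling 6 of the NDUFA group were up (median 0.32), and of the NDUFB group 4 were up and 1 down (median 0.085), and with the RNA integrity number 4 and 3 were up. NDUFA2, a small accessory subunit of the matrix arm, ranged from 32.0 to 316 TMM-scaled FPKM on day 0 (median 115), from 47.2 to 542 on day 3 (median 146) and from 74.1 to 637 on day 14 (median 451). The ranges overlapped, and the day 14 median lay above the highest value of day 0. NDUFA2 was higher on day 14 than on day 0 in 14 of 15 animals, with a log2 fold change of 1.85 (standard error 0.28, adjusted p = 4.66e-06). NDUFA3, another small accessory subunit, ranged from 29.9 to 356 on day 0 (median 92.0) and from 104 to 481 on day 14 (median 235), and rose by 1.39 on the log2 scale (standard error 0.26, adjusted p = 6.57e-05). NDUFA5 went from a median of 9.11 (5.77 to 17.6) to 19.7 (10.4 to 35.6) and was higher in all 15 animals (log2 fold change 1.15, standard error 0.16, adjusted p = 1.32e-06). NDUFA4, which carries the symbol of complex I but was later placed in complex IV, rose by 0.72 (standard error 0.15, adjusted p = 0.000315), but did not pass without TMM scaling (0.30, adjusted p = 0.0823) or with the RNA integrity number (0.43, adjusted p = 0.0928).

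The 7 core subunits of the matrix arm, which bind the flavin and the iron-sulfur clusters, gave smaller values. Of these, 6 rose on day 14 vs. day 0, with a median log2 fold change of 0.45, but without TMM scaling 0 were up and 1 down (median 0.026), and with the RNA integrity number 1 was up. NDUFS1, the largest of them and a carrier of iron-sulfur clusters, had a median of 21.0 on day 0 (16.3 to 28.5), 24.9 on day 3 (14.0 to 40.7) and 28.7 on day 14 (21.4 to 34.4). Its log2 fold change on day 14 was 0.45 (standard error 0.10, adjusted p = 0.000814), and the groups overlapped. NDUFS1 did not pass without TMM scaling (0.030, adjusted p = 0.838) or with the RNA integrity number (0.31, adjusted p = 0.0874). NDUFS8, another iron-sulfur subunit, gave the smallest value of the complex, with medians of 17.2, 19.1 and 18.2 on days 0, 3 and 14 and a log2 fold change on day 14 of 0.06 (95% interval −0.14 to 0.25, adjusted p = 0.646), which turned to −0.36 without TMM scaling and to −0.19 with the RNA integrity number. The accessory subunits NDUFB10 and NDUFC2 gave 0.12 and 0.23 (adjusted p = 0.27 and 0.143), or −0.31 and −0.19 without TMM scaling, and with NDUFS8 they were the 3 members of complex I that did not pass the test on day 14.

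Complex II, succinate dehydrogenase, is also an enzyme of the citric acid cycle and has 4 subunits. Its iron-sulfur subunit SDHB ranged from 39.9 to 223 on day 0 (median 71.2), from 41.4 to 264 on day 3 (median 88.0) and from 66.8 to 320 on day 14 (median 165). SDHB rose by 1.05 on the log2 scale on day 14 vs. day 0 (standard error 0.18, adjusted p = 1.95e-05, 14 of 15 animals). The flavoprotein subunit SDHA, its catalytic partner, ranged from 11.1 to 29.7 on day 0 (median 20.1), from 20.1 to 34.8 on day 3 (median 27.2) and from 17.4 to 33.8 on day 14 (median 24.2). For SDHA the highest levels thus fell on day 3, when all 15 animals exceeded their own day 0. Its log2 fold change was 0.47 on day 3 (standard error 0.08, adjusted p = 0.000478) and 0.27 on day 14 (adjusted p = 0.0085), the latter −0.15 without TMM scaling and 0.19 (adjusted p = 0.073) without the 3 day 0 libraries rich in neutrophil markers. The membrane anchors SDHC and SDHD gave 0.21 (standard error 0.07, adjusted p = 0.0126) and 0.13 (95% interval −0.05 to 0.31, adjusted p = 0.251) on day 14, and −0.21 and −0.29 without TMM scaling. SDHC did not pass the test without the animal block (adjusted p = 0.059) or without the same 3 libraries (0.19, adjusted p = 0.0527). When those 3 libraries were left out, SDHB was the single member of complex II that passed on day 14 vs. day 0.

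In complex III, cytochrome bc1, the 5 small subunits rose with a median log2 fold change of 0.93 and the 3 core and Rieske subunits with one of 0.31, which was −0.12 without TMM scaling. Without TMM scaling, and likewise with the RNA integrity number, 3 small subunits and 0 core or Rieske subunits were up. UQCRB, a small subunit near the ubiquinone site, went from 13.5 to 30.8 on day 0 (median 19.0), 10.1 to 77.7 on day 3 (median 22.7) and 17.3 to 112 on day 14 (median 49.4). Its log2 fold change on day 14 was 1.29 (standard error 0.19, adjusted p = 3.87e-06, 14 of 15 animals). UQCRH, the hinge protein that helps cytochrome c1 meet cytochrome c, rose in all 15 animals, from a median of 9.25 (4.69 to 16.5) to 19.9 (10.5 to 37.9), by 1.09 on the log2 scale (adjusted p = 4.22e-06). UQCR10, a small membrane-spanning subunit, rose by 0.93 (adjusted p = 2.92e-05). The core protein UQCRC1 had medians of 38.2, 44.2 and 45.5 and a log2 fold change on day 14 of 0.25 (standard error 0.07, adjusted p = 0.00514), and the Rieske iron-sulfur protein UQCRFS1, with medians of 55.6, 65.2 and 73.3, gave 0.39 (standard error 0.09, adjusted p = 0.000766); without TMM scaling these were −0.17 and −0.03.

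Complex IV, cytochrome c oxidase, showed the highest median of the 5. All its nuclear subunits surround a catalytic core made in the mitochondrion. Of the 8 members named COX6 to COX8, 7 rose on day 14, with a median log2 fold change of 1.05, and 7 also rose without TMM scaling and 7 with the RNA integrity number. COX7B, a small subunit needed for assembly, ranged from 7.28 to 39.99 on day 0 (median 14.4), from 7.36 to 54.1 on day 3 (median 14.6) and from 13.3 to 120 on day 14 (median 54.9). It was higher on day 14 than on day 0 in all 15 animals, by 1.62 on the log2 scale (standard error 0.21, adjusted p = 7.97e-07), and the groups still overlapped. COX6B1, which faces the intermembrane space, went from a median of 76.3 (32.5 to 133) to 214 (59.5 to 509), also in all 15 animals (log2 fold change 1.41, standard error 0.24, adjusted p = 2.48e-05).

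Some subunits of complex IV exist in tissue forms. COX7A2, the widely expressed form, had medians of 115, 134 and 225 and rose by 1.29 on day 14 vs. day 0 (standard error 0.26, adjusted p = 0.000186). COX7A1, its heart and muscle form, had medians of 3.74, 3.39 and 4.50 and a log2 fold change of 0.14 (95% interval −0.14 to 0.41, adjusted p = 0.42), which was −0.27 without TMM scaling. The widely expressed forms COX6A1 and COX8A rose by 0.996 and 0.89 (adjusted p = 0.00014 and 0.000145). COX4I1, which takes part in the regulation of the enzyme by ATP, rose by 0.36 (adjusted p = 0.012), and COX5A, its neighbour at the matrix side, gave 0.17 (95% interval −0.03 to 0.37, adjusted p = 0.161); without TMM scaling these were −0.07 and −0.25. COX7A2L, a factor of supercomplex assembly rather than a subunit, gave 0.24 (adjusted p = 0.0497), or −0.18 without TMM scaling.

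Complex V, the ATP synthase, held both the largest and the smallest log2 fold change of the 76 members on day 14. ATP5E, the epsilon subunit of the rotor stalk, ranged from 137 to 1043 on day 0 (median 332), from 171 to 2644 on day 3 (median 540) and from 351 to 3546 on day 14 (median 1622). It had the highest mean level of the 76 members on each day and a log2 fold change on day 14 vs. day 0 of 2.01 (standard error 0.29, adjusted p = 3.32e-06, 14 of 15 animals). The catalytic beta subunit ATP5B ranged from 121 to 184 on day 0 (median 143), from 109 to 210 on day 3 (median 154) and from 106 to 201 on day 14 (median 151). The day 0 and day 14 ranges of ATP5B nearly coincided, and its log2 fold change of 0.05 (95% interval −0.10 to 0.21, adjusted p = 0.608) turned to −0.37 without TMM scaling. The alpha subunit ATP5A1, with medians of 218, 236 and 246, gave 0.13 (95% interval −0.04 to 0.30, adjusted p = 0.211), or −0.29 without TMM scaling.

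By part of the synthase, 3 of 4 subunits of the peripheral stalk and 3 of 3 small membrane subunits rose on day 14. Their median log2 fold changes were 0.60 and 0.88. In the F1 head, counted here with ATP5E, 2 of 5 rose, with a median of 0.16 and a range from 0.05 to 2.01. In the c ring 0 of 3 rose (median 0.18). Without TMM scaling 2 of the peripheral stalk were up and 1 down, 3 small membrane subunits were up, and the medians of the F1 head and c ring were −0.26 and −0.24, while with the RNA integrity number 2 of the stalk and 1 small membrane subunit were up. ATP5J, the F6 subunit of the peripheral stalk, rose in all 15 animals, from a median of 13.5 (6.51 to 22.0) to 36.8 (14.0 to 77.9), by 1.44 (standard error 0.19, adjusted p = 8.9e-07). ATP5I, a small membrane subunit of the dimer interface, rose by 0.90 (standard error 0.21, adjusted p = 0.000701), or by 0.62 (adjusted p = 0.0865) with the RNA integrity number. The c ring genes ATP5G1, ATP5G2 and ATP5G3, which encode one identical mature protein, gave 0.24, 0.18 and 0.17 (adjusted p = 0.124, 0.106 and 0.11), or −0.18, −0.24 and −0.26 without TMM scaling. ATP5S and ATP5SL lie outside the synthase and gave 0.31 and 0.23 (adjusted p = 0.021 and 0.0376), or −0.07 and −0.18 without TMM scaling. ATP5SL did not pass without the 3 day 0 libraries rich in neutrophil markers (0.20, adjusted p = 0.104), with limma-voom (adjusted p = 0.0619), without the filter (adjusted p = 0.0568) or when animal 6, 7, 10, 11, 12 or 13 was left out (adjusted p from 0.0527 to 0.101). ATP5S did not pass without the animal block (adjusted p = 0.122) or without animal 13 (adjusted p = 0.0547).

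**Figure D2:**
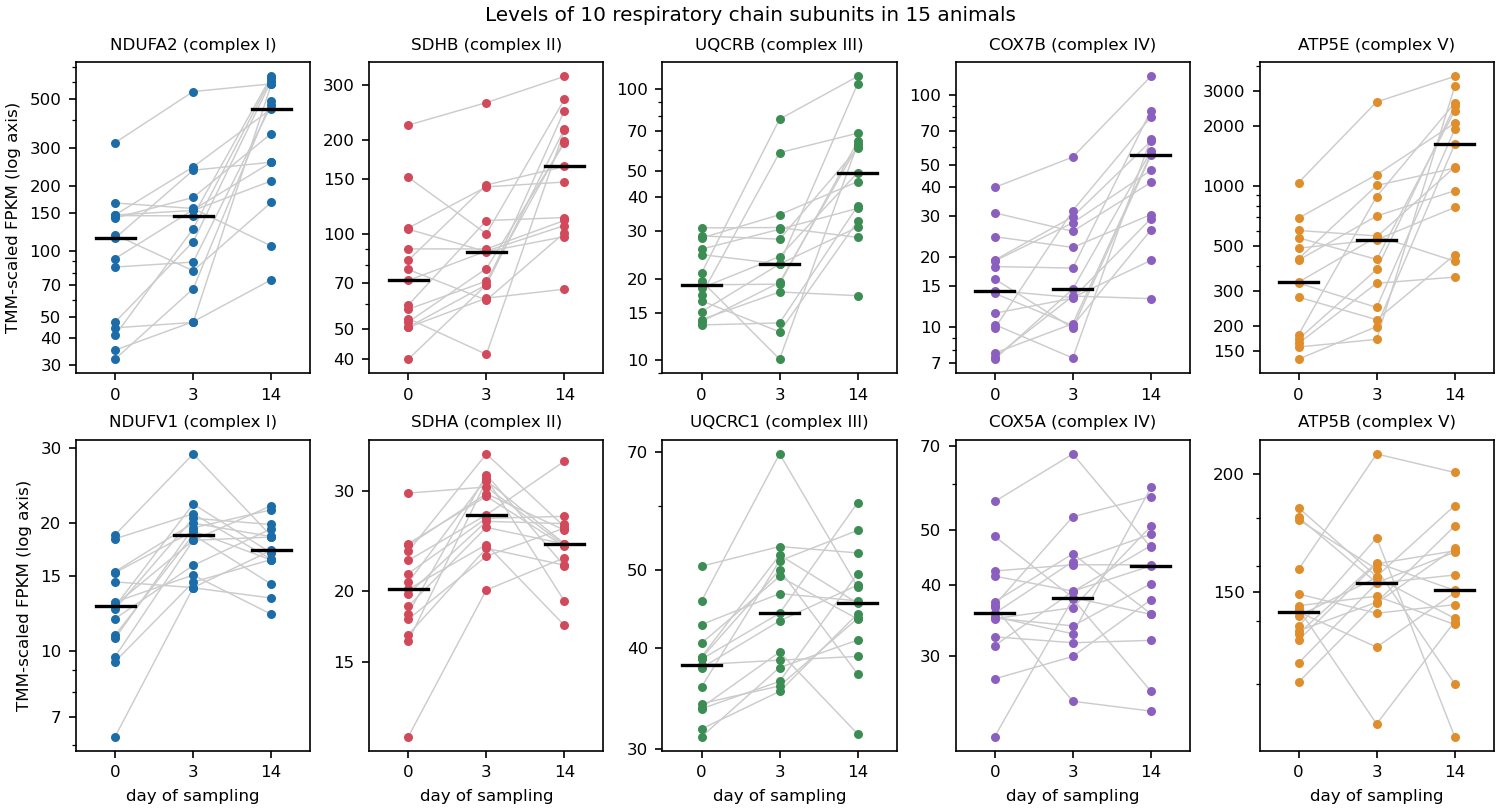
TMM-scaled FPKM of 10 members on a log axis are plotted by day, with 1 point per animal, grey lines joining the samples of an animal and a black bar at the median. The upper row shows NDUFA2, SDHB, UQCRB, COX7B and ATP5E, whose day 14 medians are 451, 165, 49.4, 54.9 and 1622 against 115, 71.2, 19.0, 14.4 and 332 on day 0; in the lower row NDUFV1 and SDHA are highest on day 3 and ATP5B stays between 106 and 210 in all samples. Without TMM scaling the day 14 vs. day 0 changes of SDHA, UQCRC1, COX5A and ATP5B turn negative.

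On day 3 vs. day 0, 9 of 76 members were up-regulated and 0 were down-regulated, 11.8% of members. Among all tested genes 19.2% were called, 10.1% higher and 9.04% lower. In terms of count, members thus stood near the background on day 3. Among them were NDUFV1, NDUFS7, NDUFA10 and NDUFV3 of complex I, SDHA of complex II, UQCRFS1 and UQCRC1 of complex III, and ATP5SL. NDUFV1, which binds the flavin where NADH gives up its electrons, ranged from 6.28 to 18.7 on day 0 (median 12.7), from 14.1 to 29.0 on day 3 (median 18.7) and from 12.2 to 21.9 on day 14 (median 17.2). In 14 of 15 animals day 3 was above day 0, with a log2 fold change of 0.56 (standard error 0.09, adjusted p = 0.000289). The platelet markers were also highest on day 3, with median sums of 672, 2076 and 1549 TMM-scaled FPKM on the 3 days, and their part in the day 3 values of NDUFV1 and SDHA was not tested. NDUFS7, a core subunit near the quinone site, rose by 0.41 (adjusted p = 0.0162). UQCRC1 rose by 0.24 in all 15 animals (adjusted p = 0.0172) and UQCRFS1 by 0.27 (adjusted p = 0.0359), or 0.23 (adjusted p = 0.148) without the 3 day 0 libraries rich in neutrophil markers. ATP5SL rose by 0.34 (adjusted p = 0.00853), or 0.29 (adjusted p = 0.191) without TMM scaling. Without TMM scaling 4 members were called, and with the RNA integrity number 4, which need not all be among the 9. UQCRC1 passed in neither (adjusted p = 0.307 and 0.0661). UQCRFS1 also did not pass when animal 1, 6, 7, 10, 11, 12, 14 or 15 was left out (adjusted p from 0.0504 to 0.0818). Without the animal as a block UQCRC1 and UQCRFS1 did not pass (adjusted p = 0.071 and 0.064). NDUFV1 and SDHA were up also without TMM scaling and with the RNA integrity number, and without those 3 libraries 5 members passed the threshold.

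Members with the largest rises on day 14 did not pass the test on day 3. ATP5E gave 0.59 (95% interval −0.01 to 1.19, adjusted p = 0.167), NDUFA2 0.50 (−0.06 to 1.07, adjusted p = 0.213) and COX7B 0.24 (−0.18 to 0.66, adjusted p = 0.456). Since days 3 and 14 were both compared with the same day 0 samples, the lists are given side by side and were not tested for overlap.

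**Figure D3:**
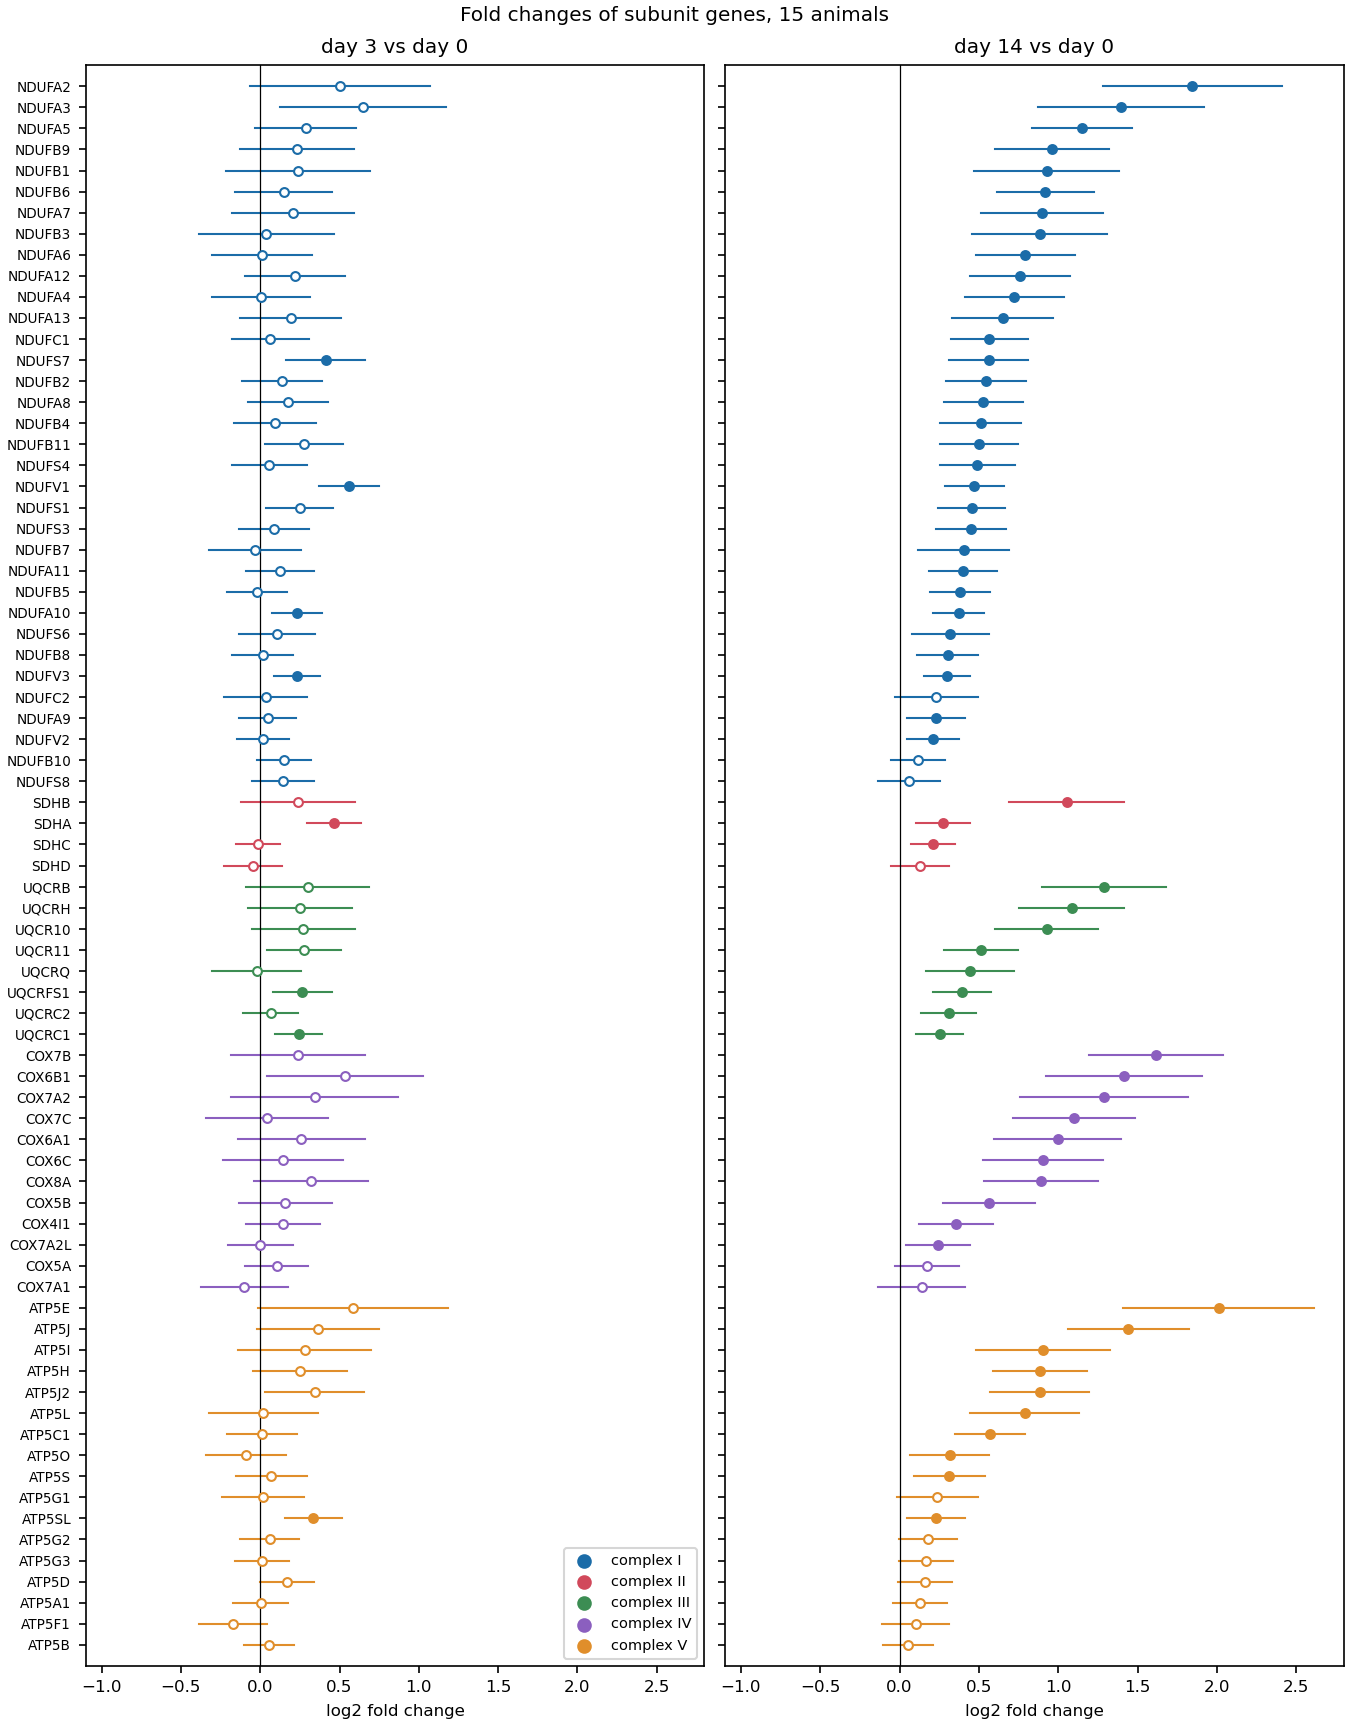
Log2 fold changes of the members, except 1 not reported here, with 95% intervals are plotted for day 3 vs. day 0 and day 14 vs. day 0, ordered by complex and by the day 14 value, and filled points passed an adjusted p-value under 0.05. On day 3 the filled points include NDUFV1 (0.56) and SDHA (0.47), and on day 14 the filled points reach from 0.21 to 2.01 (ATP5E); without TMM scaling 27 of all 76 members are up and 5 down on day 14, where 49.9% of all tested genes are down.

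Days 3 and 14 shared housing and sedation. On day 14 vs. day 3, 44 of 76 members were up-regulated and 0 down-regulated, 57.9% of members. Among all tested genes 23.7% were called, 13.9% higher and 9.76% lower. They were 21 of 35 members of complex I, 2 of 4 of complex II, 5 of 8 of complex III, 8 of 12 of complex IV and 8 of 17 of complex V. The largest rise of each complex was that of ATP5E (1.42, adjusted p = 0.00135), COX7B (1.38, adjusted p = 9.62e-05), NDUFA2 (1.34, adjusted p = 0.00135), UQCRB (0.99, adjusted p = 0.000724) and SDHB (0.82, adjusted p = 0.00193), and SDHB was higher in 15 of 15 animals. Without animal 8 the members called by symbol fell from 31 to 20, and those of complex I from 21 to 12. Without TMM scaling 18 members were up and 11 down, against 4.98% of all tested genes up and 46.1% down, and with the RNA integrity number 21 were up, against 7.53%. NDUFV1, SDHA, UQCRC1 and ATP5B had values of −0.09, −0.19, 0.01 and −0.00 (adjusted p = 0.505, 0.0872, 0.929 and 0.986), and without TMM scaling −0.47, −0.57, −0.37 and −0.39.

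The change over the second interval was tested against that over the first. Of all tested genes, 3.34% differed between the intervals, 1.08% with the larger value in the second interval and 2.26% with the smaller. Of the members 2 differed, both with the smaller value in the second interval: NDUFV1 by −0.65 (standard error 0.16, adjusted p = 0.0225) and SDHA by −0.66 (standard error 0.14, adjusted p = 0.0115) on the log2 scale. NDUFV1 did not pass without the animal block (adjusted p = 0.104), without animal 2 (adjusted p = 0.0728) or without animal 8 (adjusted p = 0.0622).

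The ratio of 2 members in the same library does not depend on the scaling between libraries. Pairs were chosen after their values were seen and are given as a description. The ratio of ATP5E to ATP5B in FPKM had a median of 2.31 on day 0 (1.01 to 8.26), 2.68 on day 3 and 10.8 on day 14 (2.10 to 22.7), and it exceeded the animal's own day 0 in 14 of 15 animals. COX7B to COX5A went from 0.331 to 0.349 and 1.05 and was above day 0 in 15 of 15 animals on day 14. UQCRB to UQCRC1 went from 0.611 to 0.505 and 1.14, with 13 of 15 animals above day 0 on day 14. NDUFA2 to NDUFS8 went from 6.99 to 7.14 and 23.2 (14 of 15 animals), and SDHB to SDHA from 3.21 to 2.79 and 7.37 (13 of 15 animals). Within animals the median log2 change of the ratio from day 0 to day 14 was 1.98 for ATP5E to ATP5B, 1.13 for COX7B to COX5A, 1.21 for UQCRB to UQCRC1, 1.28 for NDUFA2 to NDUFS8 and 0.42 for SDHB to SDHA. Each pair set a member with a large rise over one with a small value, so the direction of these ratios follows from the choice.

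Members were short genes. Their median length in the deposited normalisation was 785.5 nt, against 2644 nt over all tested genes. On day 14 vs. day 0, 35 of 41 members of up to 800 nt were up-regulated with a median log2 fold change of 0.88, and 13 of 16 members over 1500 nt with a median of 0.30. Among all tested genes the same classes gave 39.6% up with a median of 0.21 and 18.9% up with a median of −0.05. Over the 76 members Spearman's rho between length and log2 fold change was −0.57, and over all 18753 tested genes it was −0.19; these are across genes of the same libraries, which are not independent replicates. On day 3 vs. day 0, 0 of 41 members up to 800 nt were called and 7 of 16 over 1500 nt, with medians of 0.16 and 0.23, against 3.70% and 11.3% of all tested genes of these classes called higher, and rho over the members was −0.19. With RNA integrity in the model the day 14 medians were 0.62 for members up to 800 nt and 0.20 for those over 1500 nt. The part of gene length in the results was not tested further. Short nuclear subunits of mitochondria have many processed gene copies in primate genomes, and how reads that fit several places were counted is not given in the sources used here, so their levels carry that uncertainty.

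**Figure D4:**
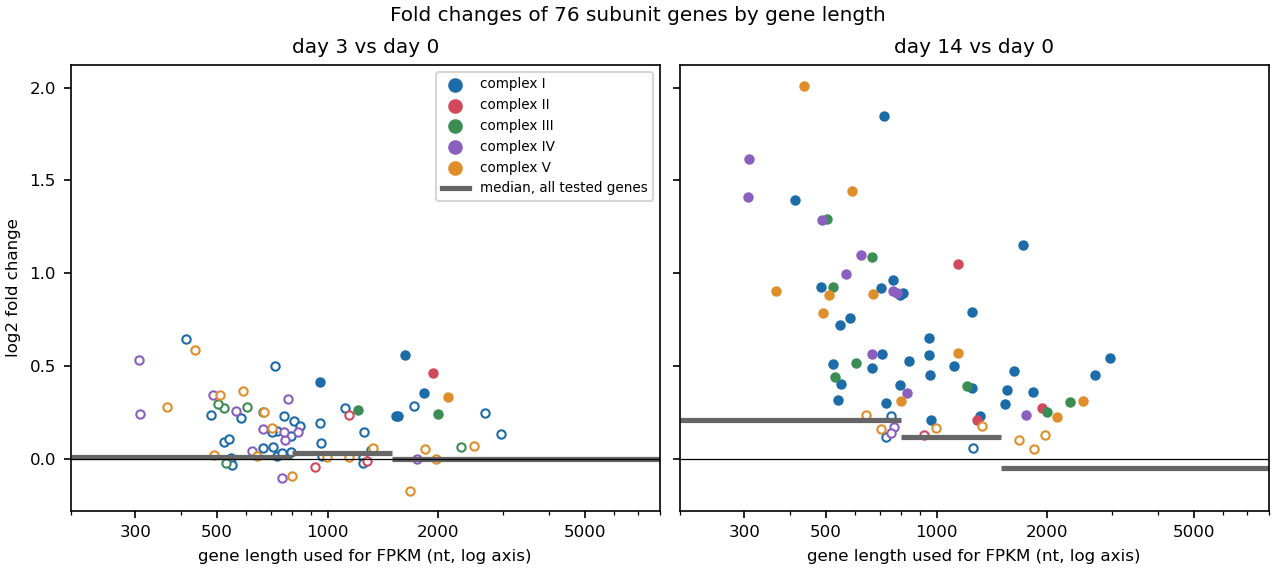
Log2 fold changes of the 76 members are plotted against gene length on a log axis, with filled points past an adjusted p-value of 0.05 and grey bars at the median of all tested genes of up to 800 nt, 800 to 1500 nt and over 1500 nt. On day 14 members up to 800 nt have a median of 0.88 and the bar lies at 0.21, whereas on day 3 the 7 called members over 1500 nt lie to the right and none up to 800 nt is filled; all values use TMM scaling, without which 5 members and 49.9% of all tested genes are down on day 14.

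**Figure D5:**
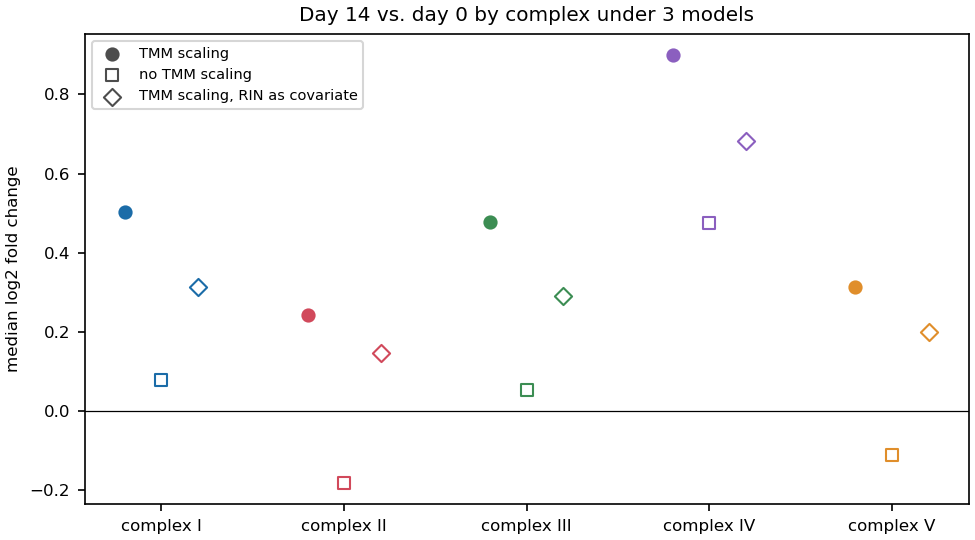
The median log2 fold change of each complex on day 14 vs. day 0 is plotted with TMM scaling, without it, and with TMM scaling and the RNA integrity number (RIN) as a covariate. The medians of complexes I to V are 0.50, 0.24, 0.48, 0.90 and 0.31 with TMM scaling and 0.08, −0.18, 0.05, 0.47 and −0.11 without it, and complex IV is highest in each model.

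Genes that serve the complexes without being members were taken from fixed lists. Of 5 further subunits and partners tested, 4 rose on day 14 vs. day 0: USMG5, a small synthase subunit (1.46), ATPIF1, the inhibitor that stops the synthase from running backwards (1.40), the electron carrier cytochrome c, CYCS (0.68), and the acyl carrier subunit NDUFAB1 (0.67), with adjusted p between 6.13e-07 and 0.000294. Without TMM scaling 2 of the 5 were up (median 0.26 against 0.68), and with the RNA integrity number 2. CYC1, the haem-bearing catalytic subunit of complex III, gave 0.16 (adjusted p = 0.0966), or −0.27 without TMM scaling. NDUFA4L2 was matched but too low to be tested.

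Assembly factors build the complexes without staying in them. Of the factors of complex I, 4 of 15 rose and 1 fell on day 14, with a median of 0.05, against 23.0% of all tested genes called higher and 21.0% lower. Of those of complex IV, 12 of 23 rose and 1 fell, with a median of 0.23, but with the RNA integrity number 2 were up and 0 down. The copper chaperone SCO2 fell by 0.36 on the log2 scale (adjusted p = 0.0251), whereas PET100 and the copper chaperone COX17 rose by 1.11 and 0.86 (adjusted p = 4.14e-05 and 0.000649). TIMMDC1 was the factor of complex I that fell (−0.21, adjusted p = 0.017), and NDUFAF3 rose by 0.62. For complexes II, III and V the counts were 0 of 2, 1 of 5 (UQCC2, 0.48) and 1 of 3 (ATPAF2, 0.52), all in the upward direction. Without TMM scaling 0 of these were up and 3 of complex III were down, and with the RNA integrity number 1 of complex V was up and 0 of the others. Without TMM scaling 9 factors of complex I and 8 of complex IV were down and 0 and 3 were up, where 49.9% of all tested genes were down.

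Of 14 genes of the citric acid cycle 8 rose on day 14 and 0 fell (median 0.22, or −0.20 without TMM scaling). Without TMM scaling 1 was up and 3 down, and with the RNA integrity number 4 were up. Fumarase, FH, rose by 1.65 in all 15 animals (adjusted p = 1.06e-06) and IDH2, the mitochondrial NADP-dependent isocitrate dehydrogenase, by 0.67, also in all 15 (adjusted p = 1.22e-06), whereas citrate synthase, CS, gave 0.01 (adjusted p = 0.947), or −0.41 without TMM scaling. Of 7 carriers and channels 4 rose, led by the outer membrane channel VDAC3 (1.1, adjusted p = 5.54e-06, 15 of 15 animals), and without TMM scaling 1 was up and 2 down, and with the RNA integrity number 2 were up. Of 14 regulators of mitochondrial DNA transcription and biogenesis 3 rose and 3 fell, shares near the 23.0% and 21.0% of all tested genes. Without TMM scaling 0 were up and 8 down, again near the background of 49.9% down, and with the RNA integrity number 1 was up and 3 down. YY1, a general transcription factor, rose by 0.55 (adjusted p = 0.00141). NRF1, an activator of genes for respiratory subunits, went the other way, with −0.46 (adjusted p = 5.02e-06), and was lower in 15 of 15 animals. PPARGC1B, a coactivator of mitochondrial biogenesis, and TFB1M, a methyltransferase of mitochondrial ribosomal RNA, gave −0.44 and −0.24 (adjusted p = 0.00419 and 0.00336), and TFAM, which packages mitochondrial DNA, gave 0.15 (adjusted p = 0.224), or −0.27 without TMM scaling.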

How the data were processed

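Whole blood RNA of 15 animals on days 0, 3 and 14 was sequenced (45 libraries). Per the paper, the libraries were prepared with treatments against ribosomal and globin RNA. Per the paper's methods and the submitters' processing notes, the authors made reads with bcl2fastq 2.17, aligned them with STAR, counted fragments with HTSeq and deposited FPKM values per gene for each sample, on the build Chlorocebus_sabeus 1.1. Strand settings and the handling of reads that fit several places are not given in the sources used here. The design assumed normalized values, and the deposited FPKM were tested on a log scale. Coordinates were not used, because the annotation table at hand (RefSeq, assembly mChlSab1.0.hap1) is of another assembly. It served to name 6491 of 17250 numbered genes.

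Steps of 1 fragment were recovered in 100% of the 33635 genes above 0 (tolerance 0.05 fragments), which gave the depth of 13216275 to 31469332 fragments per library. The 18753 genes above 0.5 CPM in at least 3 samples were kept (6.61 to 15.7 fragments). FPKM were divided by TMM factors and tested as log2(value + 0.1) with limma 3.58.1 in R 4.3.3, with the animal as a block and Benjamini-Hochberg adjustment over all genes tested (threshold 0.05). The pseudocount slightly understates changes of low genes. No pair of libraries held identical values.

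The labels give the same animal at each day. After removal of day means, the mean r was 0.328 within animals (lowest −0.0433) and −0.0382 between animals, and 38 of 45 samples correlated best with a sample of their own animal. The RNA integrity number is the study's own measure and served as a covariate only. The alternatives were no animal block, no TMM scaling, median-of-ratios factors, pseudocounts of 0.01 and 1, no filter, the RNA integrity number, limma-voom on the recovered fragments, leaving out symbols that are not subunits of their complex, leaving out each animal, and leaving out 3 day 0 libraries. The scripts were tested on simulated data. Named with values were, in each complex, the 3 called members with the largest and the 1 with the smallest change on day 14 vs. day 0, the largest called change over each of the 2 intervals, any member called against the direction of its complex, fixed core subunits and tissue forms, the members next to the FPKM limit and the called gene with the largest change of each pathway list. NDUFA4, NDUFA10, NDUFB10, NDUFC2, NDUFS7, NDUFV3, COX7A2L and the further genes of the lists were added after their values were seen. Values of 1 member are not reported here. The members and lists were chosen with earlier results of these data known.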

Additional observations from a re-analysis of the deposited data

Results flagged for a closer look

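In 2 of the 76 members the change from day 3 to day 14 differed from the change from day 0 to day 3, by the limma test of the difference itself with the animal as a block. This share of members is not above the 3.34% of all tested genes that differed, and NDUFV1 did not pass without the block, without animal 2 or without animal 8 (adjusted p = 0.104, 0.0728 and 0.0622). For NDUFV1 the second change minus the first was −0.65 on the log2 scale (standard error 0.16, adjusted p = 0.0225). For SDHA it was −0.66 (standard error 0.14, adjusted p = 0.0115). Both intervals share the day 3 samples.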

How the results depend on the processing

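The counts of called members below are for the 56 found by symbol and for all 76. Without TMM scaling they were 4 and 4 on day 3 vs. day 0, 22 (17 up, 5 down) and 32 on day 14 vs. day 0, and 20 (11 up, 9 down) and 29 on day 14 vs. day 3. With the RNA integrity number they were 4 and 4, 14 and 24, and 15 and 21. Without the 3 day 0 libraries richest in neutrophil markers, an alternative chosen after seeing the data, they were 4 and 5 on day 3. Without the replicate block all 76 gave 7, 58 and 32 on the 3 comparisons, and 1 member by symbol and 1 of all in the difference between the intervals. Leaving out 1 animal gave 20 to 35 by symbol on day 14 vs. day 3 (lowest without animal 8), and 1 to 2 and 1 to 3 in the difference between the intervals (1 without animal 2 or 8).

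By complex on day 3 vs. day 0, complex I had 3 called without TMM scaling, 2 with the RNA integrity number, 2 without the 3 libraries and 4 to 8 without 1 animal (8 without animal 8). Complex III had 0 without the replicate block, without TMM scaling and with the RNA integrity number, 1 with median-of-ratios factors, without the filter and without the 3 libraries, and 1 to 3 without 1 animal (changed by animals 1, 6, 7, 10, 11, 12, 14 and 15). Complex V had 0 without TMM scaling. On day 14 vs. day 0, complex I had 12 (10 up, 2 down) without TMM scaling and 8 with the RNA integrity number. Complex II had 1 with that number and 1 without the 3 libraries. Complex III had 3 without TMM scaling and 3 with that number, and complex V had 5 with that number. Without TMM scaling complex II had 1 up and 1 down, and complex V 6 up and 2 down. On day 14 vs. day 3, complex I had 12 (7 up, 5 down) without TMM scaling and 9 with the RNA integrity number. Complex IV had 5 (5 up, 0 down) and 3 in these models. Complexes II, III and V had 1, 3 and 5 with the RNA integrity number. Without TMM scaling complex II had 1 up and 1 down, complex III 2 up and 2 down, and complex V 3 up and 3 down. Complex II had 1 without the replicate block, and complex I 12 to 23 without 1 animal (12 without animal 8). Without TMM scaling the medians of complexes I, II and V were 0.078, −0.18 and −0.11 on day 14 vs. day 0 and 0.019, −0.18 and −0.10 on day 14 vs. day 3. The cause was not tested.

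Without TMM scaling the day 14 vs. day 0 values turned to −0.36 for NDUFS8, −0.15 for SDHA, −0.21 for SDHC (−0.16 on day 14 vs. day 3), −0.29 for SDHD, −0.17 for UQCRC1, −0.032 for UQCRFS1, −0.068 for COX4I1, −0.25 for COX5A, −0.27 for COX7A1, −0.29 for ATP5A1, −0.37 for ATP5B, −0.18 for ATP5G1, −0.24 for ATP5G2, −0.26 for ATP5G3, −0.072 for ATP5S and −0.18 for ATP5SL. With the RNA integrity number they turned to −0.19 for NDUFS8, −0.020 for SDHD, −0.048 for COX5A, −0.025 for ATP5A1, −0.090 for ATP5B, −0.024 for ATP5G2 and −0.072 for ATP5G3. With limma-voom and with pseudocounts of 0.01 and 1, all 23 counts stayed within 1.5 times and all 15 medians moved by less than the spread between animals. Among members named by the fixed rule, leaving aside those added after their values were seen, limma-voom ended 2 calls. These were ATP5SL on day 14 vs. day 0 (adjusted p = 0.0619) and ATP5I on day 14 vs. day 3 (adjusted p = 0.0743). Leaving out NDUFA4, COX7A2L, ATP5S and ATP5SL gave day 14 medians of 0.50, 0.90 and 0.31 for complexes I, IV and V. The values rest on 17 or more fragments per member and library, and counting error weighs most on ATP5S.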
